A study of Mus musculus with 16 samples.

Results

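Integrin alpha 8, encoded by Itga8, was followed in mouse liver with other integrin chains that bind the arginine-glycine-aspartate (RGD) motif and with some ligands. The 10 genes listed were the alpha chains Itga8, Itga5 and Itgav, the beta chains Itgb1, Itgb3, Itgb5 and Itgb8, and the ligand genes Npnt, Fn1 and Spp1. They were taken by symbol from a table of 19938 genes, and each was represented by its brightest row on average across the 16 arrays. Of the 10 genes, 9 had a row with their symbol alone, and Spp1, which encodes osteopontin, was not analysed here. Rows were thus chosen by their overall mean, and as every one of the 9 genes had a single such row, no choice between rows arose. Itga8 was chosen by its large difference between the groups, which was already known, so that difference is given as a description without a p-value. The transgenic group (7 arrays) came from mice labelled Pdgf-c transgenic, and the wildtype group (9 arrays) from mice without the transgene, both of strain C57BL/6. The Pdgf-c product is a platelet-derived growth factor and a mitogen of fibroblasts and hepatic stellate cells. The labels name liver as the tissue and stromal cells as the cell type, whereas the extraction protocol describes RNA of the whole liver. The labels give neither the promoter that drives the transgene, nor the age of the mice, nor whether each array stands for its own animal, so the p-values speak for the spread among these arrays, which may be technical.

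Integrins are membrane receptors built of an alpha and a beta chain that tie the extracellular matrix to the actin cytoskeleton. Integrin alpha 8 pairs with beta 1 and marks mesenchymal cells, in liver mainly hepatic stellate cells, and its best known ligand is nephronectin (Npnt), a basement membrane protein that the kidney needs for its early growth. Integrin alpha V pairs with several beta chains, and alpha V beta 8 and other alpha V receptors can release active TGF-beta from its latent complex by binding an RGD motif there. Alpha 5 beta 1 is the classical fibronectin receptor.

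RNA was hybridised to Affymetrix Mouse Gene 1.0 ST arrays, and values are log2 intensities as deposited, with column medians from 5.20 to 5.36. Levels of different genes are not compared, because each row has its own probes. The hepatocyte gene Alb averaged 13.54 in transgenic and 13.56 in wildtype livers on the log2 scale, so the hepatocytes of whole liver were present in both groups, against the label of stromal cells. The Pdgfc row was higher by 0.44 ± 0.0873 (log2, SE) in transgenic livers (limma adjusted p = 0.00132). On the second principal component of all rows wildtype array 9 (-54.4) and transgenic array 1 (28.8) lay at the ends, and results that rest on either are given without them. Over 1 row per gene, 23.2% of genes passed the threshold used throughout, a limma p adjusted by the Benjamini-Hochberg method over all 35557 rows of under 0.05, with 12.1% higher and 11.1% lower in the transgenic group. Over all rows 18.9% were called: 3785 were higher (10.6%) and 2936 lower (8.26%) as deposited, and 2873 were higher and 4688 lower with each array centred on its median.

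Itga8 stood far above wildtype in every transgenic liver. Its level ranged from 9.39 to 9.92 on the log2 scale in the 7 transgenic arrays, with a median of 9.65, and from 5.16 to 5.63 in the 9 wildtype arrays, with a median of 5.33. The groups were separated by several log2 units and each was narrow: the SD was 0.221 among transgenic and 0.135 among wildtype arrays. The difference was 4.31 ± 0.0858 (log2, SE), or 19.8-fold, the second largest rise among the 19938 genes. The wildtype mean of 5.35 was above the 20th percentile of the table (3.45), the mark used here for dim rows, and close to the table median of 5.26. Whether that wildtype level lies above background was not tested, and the fold depends on it. No other member came near this difference, as the plot of values by array shows.

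**Figure D1:**
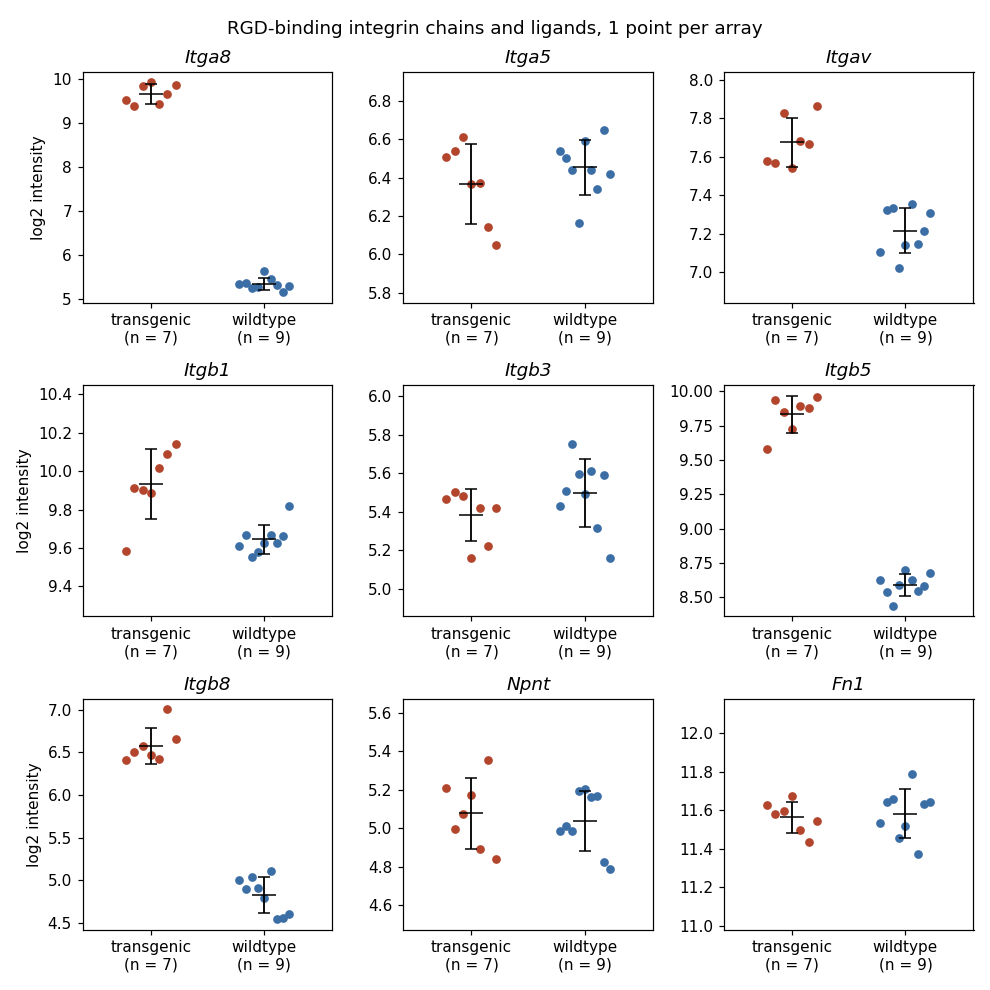
Log2 intensity of the 9 measured genes, with 1 point per array, transgenic (7 arrays) left of wildtype (9 arrays), and the group mean ± SD in black; each panel has its own axis. Itga8, Itgav, Itgb5 and Itgb8 show no overlap between the groups, Itgb1 overlaps through transgenic array 1, and Itga5, Itgb3, Npnt and Fn1 overlap widely.

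The partner chain of alpha 8 moved far less. Itgb1, the beta 1 chain shared by alpha 8, alpha 5 and many other integrins, ranged from 9.58 to 10.14 in transgenic arrays (median 9.91) and from 9.55 to 9.82 in wildtype arrays (median 9.63). It rose 1.22-fold, by 0.29 ± 0.0638 on the log2 scale (limma adjusted p = 0.00317). In 6 of the 7 transgenic arrays Itgb1 exceeded all wildtype arrays, while transgenic array 1 was lowest of its group and lay within the wildtype range. Without transgenic array 1 and wildtype array 9 the difference was 0.37 (limma adjusted p = 1.36e-05).

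The other alpha chains went separate ways. Itgav, the alpha V chain of the vitronectin receptors, had levels from 7.54 to 7.86 in transgenic arrays (median 7.67), against 7.02 to 7.35 in wildtype arrays (median 7.22). The groups did not overlap, and Itgav rose 1.37-fold, by 0.46 ± 0.0633 on the log2 scale (limma adjusted p = 3.59e-05). Itga5, the alpha chain of the fibronectin receptor, lay between 6.05 and 6.61 in transgenic arrays (median 6.37) and between 6.16 and 6.65 in wildtype arrays (median 6.44). These ranges overlapped almost fully, and the difference of -0.09 ± 0.0858 did not pass the test (limma adjusted p = 0.561), with a 95% interval from -0.27 to 0.10.

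Among the beta chains that pair with alpha V, Itgb8 and Itgb5 rose and Itgb3 did not pass the test. Itgb8, the chain of the latent TGF-beta receptor alpha V beta 8, ranged from 6.41 to 7.01 in transgenic arrays (median 6.51) and from 4.55 to 5.11 in wildtype arrays (median 4.90). All transgenic arrays lay more than 1 log2 unit above all wildtype arrays, and Itgb8 rose 3.36-fold, by 1.75 ± 0.103 (log2; limma adjusted p = 9.05e-10). The Itgb8 wildtype mean of 4.83 lay under the table median of 5.26. Whether that level lies above background was not tested, and the fold and the comparisons of Itgb8 below depend on it. Itgb5, the chain of a vitronectin receptor, ranged from 9.58 to 9.96 in transgenic arrays (median 9.88) and from 8.44 to 8.70 in wildtype arrays (median 8.59). Here too the groups were apart, with transgenic array 1 lowest of its group, and Itgb5 rose 2.37-fold, by 1.24 ± 0.0541 (log2; limma adjusted p = 1.98e-11). Itgb3, the beta chain of the platelet fibrinogen receptor and of alpha V beta 3, ranged from 5.16 to 5.50 in transgenic arrays (median 5.42) and from 5.16 to 5.75 in wildtype arrays (median 5.51). In 5 of 9 wildtype arrays Itgb3 lay above every transgenic array, yet the difference of -0.11 ± 0.082 did not pass the test (limma adjusted p = 0.389; 95% interval -0.29 to 0.06).

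Neither measured ligand passed the test. Npnt, the preferred ligand of alpha 8 beta 1, ranged from 4.84 to 5.36 in transgenic arrays (median 5.07) and from 4.79 to 5.20 in wildtype arrays (median 5.01). Its mean over all arrays, 5.05, lay under the table median of 5.26, and whether this level lies above background was not tested. The Npnt groups overlapped, the difference was 0.04 ± 0.0863 (limma adjusted p = 0.803), and its sign turned when arrays were centred on their medians, with a 95% interval from -0.14 to 0.22 as deposited. Fn1, fibronectin, which hepatocytes secrete into plasma and mesenchymal cells deposit in the matrix, ranged from 11.43 to 11.67 in transgenic arrays (median 11.58) and from 11.37 to 11.79 in wildtype arrays (median 11.63). The groups overlapped, and the difference of -0.02 ± 0.052 (limma adjusted p = 0.852) had a 95% interval from -0.13 to 0.09, which leaves out a rise of the size seen in Itgav.

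Of the 8 measured genes other than Itga8, 4 rose and none fell, beside the 23.2% of all genes called in either direction. The 4 were Itgb8, Itgb5, Itgav and Itgb1, and 3 of them (all but Itgb1) had groups that did not overlap, beside 9.08% of all genes with no overlap (5.43% higher and 3.65% lower). The median difference of the 8 was 0.16, against -0.04 over all genes. Because genes above the median level of the table were called more often (33.8%), and 7 of the 8 lie there, that share is the nearer background. The members were chosen with earlier results of these data known, and 8 genes are few. These counts therefore describe the members and are no independent support for a rise of the set.

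Differences between chains of the same role were compared within each array, which cancels only a factor that shifts both genes by the same log2 amount. For 8 pairs, set after the values were known, the log2 ratio of both genes was compared between the groups with a two-sided exact permutation test over all 11440 ways to draw 7 of 16 arrays, adjusted over the 8 pairs by the Benjamini-Hochberg method. Itgb8 rose by 0.50 ± 0.113 (log2, SE) more than Itgb5 (exact adjusted p = 0.00105), and Itgb5 by 0.95 ± 0.0408 more than Itgb1 (exact adjusted p = 0.00014). The ratio of Itgb5 to Itgb1 was higher in all 7 transgenic arrays than in any wildtype array. Itgb1 in turn exceeded Itgb3 in its change by 0.40 ± 0.123 (exact adjusted p = 0.00839), and Itgav exceeded Itga5 by 0.54 ± 0.109 (exact adjusted p = 0.00014). The groups overlapped in other ratios: Itgb8 to Itgb5 lay above all wildtype arrays in 5 of 7 transgenic arrays, and Itgb1 to Itgb3 in 3 of 7. Because the pairs were set with the values known, these p-values are no independent support for an order of the chains. The changes of Npnt and Fn1 differed by 0.06 ± 0.111 (exact adjusted p = 0.599). The smallest p these permutations can give is 8.74e-05, reached in 5 of the 8 pairs before adjustment.

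**Figure D2:**
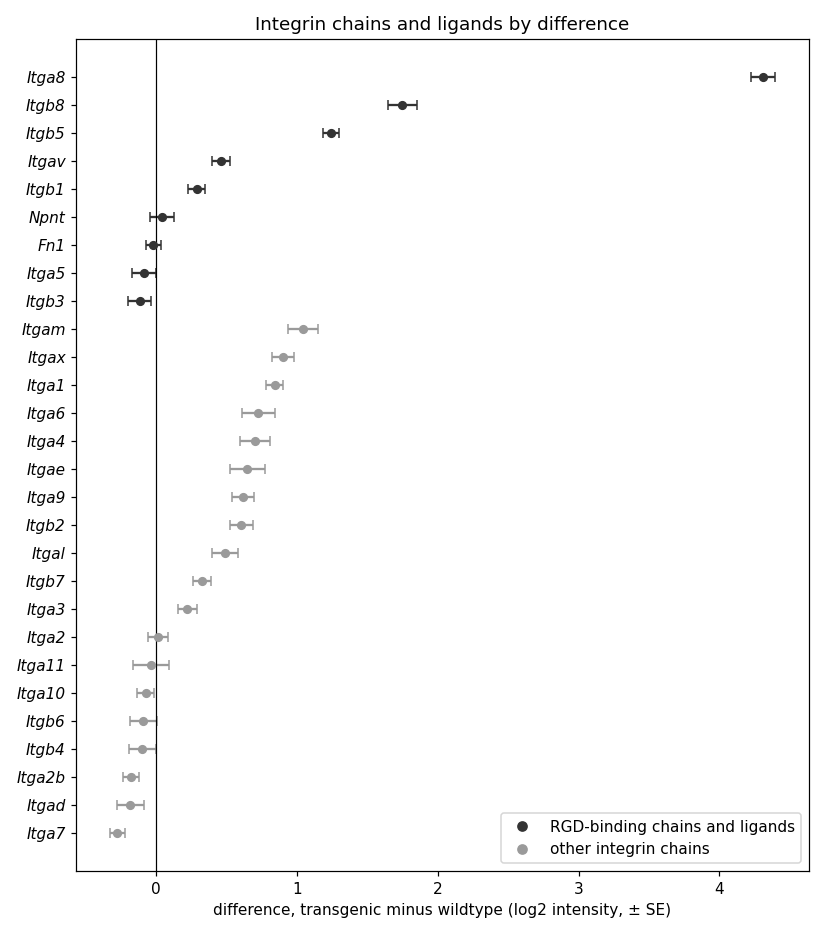
Difference between transgenic and wildtype livers (log2 intensity, transgenic minus wildtype, ± SE of the fit, 7 against 9 arrays) for the 9 RGD-binding chains and ligands (dark) and the 19 other integrin chains (grey), each ordered by size. Itga8 at 4.31 lies apart from all others, followed by Itgb8 at 1.75 and Itgb5 at 1.24, and Itgam at 1.04 leads the other chains. The grey chains include Itga2b and Itgb6, which are RGD-binding too.

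Promoter sequences are printed for Itga8, Itgb8 and Itgb5, the genes with the largest differences. Each is the 250 bases before the transcription start in RefSeq, build GRCm38.p6, written 5′ to 3′ on the strand of the gene. Itga8 lies on the minus strand (chr2:12301945-12302194), Itgb8 on the minus strand (chr12:119238277-119238526) and Itgb5 on the plus strand (chr16:33829415-33829664). Capitals mark matches on either strand to any of the motifs searched, which were the SMAD element CAGAC, the TEAD element GGAATG, the GC box GGGCGG, the AP-1 element TGANTCA and the TATA box TATAAA.
Itga8: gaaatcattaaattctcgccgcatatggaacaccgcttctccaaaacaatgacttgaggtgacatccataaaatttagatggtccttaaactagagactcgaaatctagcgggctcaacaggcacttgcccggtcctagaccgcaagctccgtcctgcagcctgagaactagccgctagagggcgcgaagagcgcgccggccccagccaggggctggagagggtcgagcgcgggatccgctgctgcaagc
Itgb8: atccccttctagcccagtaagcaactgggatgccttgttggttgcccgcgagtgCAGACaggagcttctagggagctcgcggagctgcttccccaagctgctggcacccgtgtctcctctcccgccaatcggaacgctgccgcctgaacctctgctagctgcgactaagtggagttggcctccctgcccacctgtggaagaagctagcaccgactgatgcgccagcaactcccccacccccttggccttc
Itgb5: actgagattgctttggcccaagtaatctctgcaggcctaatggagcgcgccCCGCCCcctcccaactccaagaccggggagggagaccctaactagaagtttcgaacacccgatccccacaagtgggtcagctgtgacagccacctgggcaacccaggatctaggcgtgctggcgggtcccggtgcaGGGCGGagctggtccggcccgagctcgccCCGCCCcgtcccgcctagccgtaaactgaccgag
The Itga8 window held none of these letters, the Itgb8 window held 1 SMAD element and the Itgb5 window held 3 GC boxes, none overlapping another match. Over 32851 promoter windows of the same length, 42.2% held CAGAC, 32.7% GGGCGG, 12.6% GGAATG, 12.4% TATAAA and 6.75% TGANTCA. Of the 10 listed genes 8 had an entry. The Itga5 window held 2 GC boxes and no other match, the Itgav window held no match, and the Itgb1 window held 3 SMAD elements, 1 TEAD element and 1 GC box.

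The liver samples are bulk RNA, in which more or fewer cells of a type and more or less RNA per cell cannot be told apart. Of 12 markers of hepatic stellate cells and fibroblasts, 11 rose and none fell, led by the proteoglycan gene Lum (3.56 ± 0.174, log2, SE) and the stellate transcription factor gene Tcf21 (2.75 ± 0.123). Thus 91.7% of these markers were called, beside 23.2% of all genes and 33.8% of those above the median level. Their summed linear intensity ranged from 6091 to 7569 in transgenic and from 1537 to 2439 in wildtype arrays, and no marker lay under the 20th percentile in both groups. The mean log2 level of the 12 markers was higher by 1.71 in the transgenic group. Set against that mean in the same array, Itga8 was at 1.12 to 1.38 in transgenic arrays and at -1.58 to -1.13 in wildtype arrays, a difference of 2.60 beyond the marker mean. The differences of the single markers ran from 0.04 (Ngfr, not called) to 3.56 (Lum), so the excess of a gene depends on the marker it is set against. Itgb8 relative to the markers differed by 0.04, with overlapping groups (-2.07 to -1.33 in transgenic and -2.16 to -1.57 in wildtype arrays), so its rise was of the size of the marker mean. Itgb5 relative to the markers was at 1.18 to 1.66 in transgenic and at 1.58 to 2.14 in wildtype arrays. Itgav and Itgb1 differed by -1.25 and -1.42 relative to the markers, their rises being smaller than that of the marker mean. For the remaining 4 genes, which did not pass the test, a lower value relative to the markers follows from the rise of the markers alone.

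Within the transgenic group, Itga8 and the marker mean were low and high in the same arrays. Transgenic arrays 2 and 5 were lowest in both Itga8 (9.39 and 9.42) and the marker mean (8.27 and 8.28), and arrays 3, 4 and 7 were highest in both. This relation was noticed in a plot and then tested on the same arrays, for all 9 genes in both groups, 18 relations in all, with exact two-sided permutation over all orders of the arrays, so its p-values are no independent evidence of it. For Itga8 in the 7 transgenic arrays Pearson's r was 0.965 (exact permutation p = 0.00119, adjusted 0.0214) and Spearman's rho was 0.964 (exact permutation p = 0.00278), and the adjusted p of rho, 0.05, was not under the threshold. Without the 2 arrays farthest from the median of the marker mean, r was 0.95 over 5 arrays. In the 9 wildtype arrays Itga8 had an r of 0.55 (exact permutation p = 0.121, adjusted 0.694) and a rho of 0.48 (exact permutation p = 0.194, adjusted 0.867), with an r of 0.39 without the 2 farthest arrays, and whether the relation differs between the groups was not tested. None of the other 17 relations passed the adjusted threshold. The points share their array, so a factor common to an array would move both measures, and its part was not tested.

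**Figure D3:**
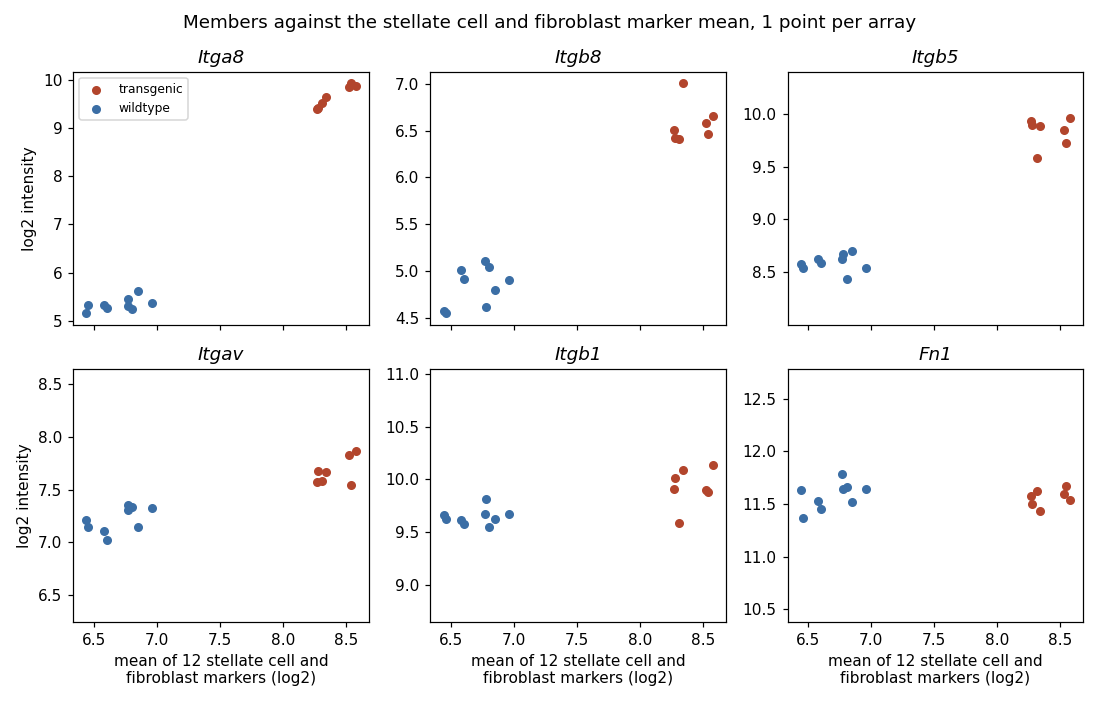
Log2 intensity of 6 genes (vertical) against the mean log2 level of 12 stellate cell and fibroblast markers (horizontal), 1 point per array, transgenic and wildtype, with a vertical axis per panel. In the transgenic arrays Itga8 climbs with the marker mean (r of 0.965 over 7 arrays), and the Fn1 ranges of the groups overlap.

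Markers of other cell types that could carry these integrins were read beside them. The shares called are to be set against 23.2% of all genes and 33.8% of those above the median level. Of 7 smooth muscle markers 3 rose (42.9% called, near the 33.8%), led by Tagln (1.40 ± 0.114, log2, SE) and the smooth muscle actin gene Acta2 (0.58 ± 0.133). Myh11, Actg2, Cnn1 and Lmod1 did not pass the test (0.05, 0.03, -0.13 and -0.08), and the median difference of the list was 0.05. The mean level of the 7 was 5.68 to 5.92 in transgenic and 5.37 to 5.55 in wildtype arrays. All 7 monocyte and macrophage markers rose, with Ms4a7 at 2.26 ± 0.128 and Cx3cr1 at 2.20 ± 0.106, and their mean level was 6.55 to 7.05 in transgenic and 5.26 to 5.63 in wildtype arrays. All 6 Kupffer cell markers fell, with Cd5l at -2.83 ± 0.296 and Cd163 at -2.76 ± 0.121, and a mean level of 5.10 to 6.16 in transgenic and 7.19 to 8.11 in wildtype arrays. Of 11 endothelial markers 2 rose and 5 fell (63.6% called), with the DNase gene Dnase1l3 at -1.88 ± 0.107 and the sialomucin gene Emcn at 1.23 ± 0.117, and a mean level of 6.37 to 6.65 in transgenic and 6.77 to 7.15 in wildtype arrays. Their part in the changes of the integrin chains was not tested.

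Platelets carry Itgb3, and of the 5 platelet markers measured the chemokine genes Pf4 (2.32 ± 0.0807) and Ppbp (1.10 ± 0.164) rose, while Gp9, Gp5 and Treml1 did not pass the test. The share called, 40%, was near the 33.8% of genes above the median level, so the count is no result about the list. The platelet marker mean was 5.84 to 6.20 in transgenic and 5.19 to 5.39 in wildtype arrays. Of 5 cholangiocyte markers none passed the test (limma; Krt19 at 0.10 ± 0.0693 and Cftr, under the 20th percentile in both groups, at -0.11 ± 0.0778), with mean levels of 4.72 to 4.95 in transgenic and 4.76 to 4.90 in wildtype arrays. Of 9 hepatocyte markers 5 fell (55.6% called, beside 23.2% of all genes), among them Otc (-0.51 ± 0.0487) and F9 (-0.33 ± 0.0678), with mean levels of 12.14 to 12.25 in transgenic and 12.32 to 12.40 in wildtype arrays.

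The genes whose pattern over the 16 arrays was nearest to Itga8 were Mgp, Lum, Adamtsl2, Fhl2 and Cd34. Likeness was the mean absolute distance between 2 genes after subtracting each gene's wildtype mean. Mgp, which encodes the calcification inhibitor matrix Gla protein, was nearest at 0.21 log2 units, and its own difference was 4.40. Lum followed at 0.51, Adamtsl2, which encodes a secreted microfibril-associated glycoprotein, at 0.54, the LIM-domain gene Fhl2 at 0.58 and the sialomucin gene Cd34 at 0.59. This measure ranks genes largely by the size of their difference between the groups, so that all 5 were higher in every transgenic array follows from how they were chosen. Among the other members the nearest was Itgb8, at 1.23 log2 units and rank 77 of all genes, and then Itgb5, at 1.39 and rank 157.

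**Figure D4:**
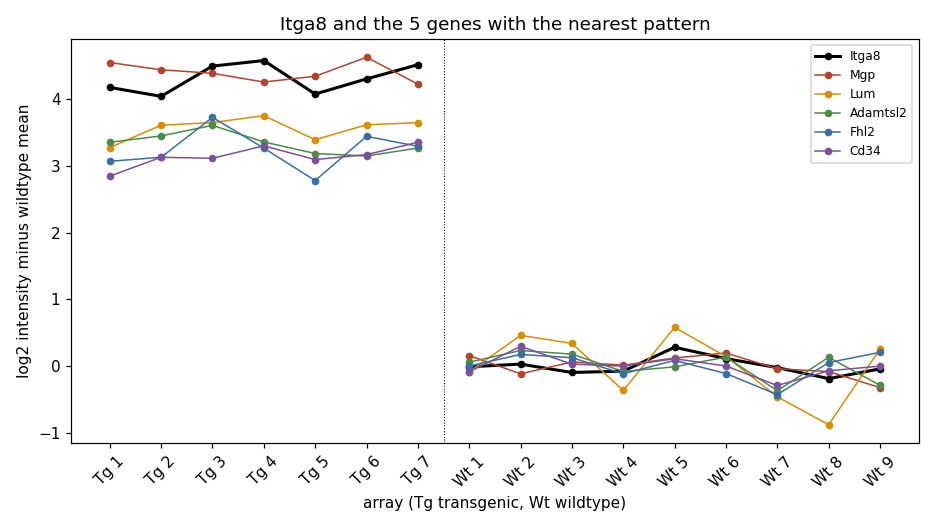
Log2 intensity minus the wildtype mean of each gene (vertical) over 7 transgenic (Tg) and 9 wildtype (Wt) arrays for Itga8 and the 5 genes nearest to it; lines join arrays of a group and carry no order. Itga8 and Mgp lie together above 4 in all 7 transgenic arrays, and Lum, Adamtsl2, Fhl2 and Cd34 lie below them.

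The remaining integrin chains rose more often than they fell. Of 19 chains outside the list, 11 rose and 2 fell, beside 23.2% of all genes called, with a median difference of 0.33 against -0.04 over all genes. Itgam and Itgax, the alpha chains of complement receptors of myeloid cells, rose by 1.04 ± 0.107 and 0.90 ± 0.0778 (log2, SE; limma adjusted p = 1.25e-06 and 1.31e-07). Itga1, the alpha chain of a collagen receptor found on stellate and smooth muscle cells, rose by 0.84 ± 0.06 (limma adjusted p = 1.10e-08). The 2 that fell were Itga7, a laminin receptor chain of muscle, at -0.28 ± 0.0531 (limma adjusted p = 0.00099), and Itga2b, the platelet partner of Itgb3 and itself RGD-binding, at -0.18 ± 0.06 (limma adjusted p = 0.047). The call of Itga2b was lost on leaving out any 1 array other than transgenic arrays 1, 2 and 7 and wildtype array 3. It held in 11 of 24 alternative settings, and its adjusted p ran from 0.00344 to 0.112 over them. Itgb6, the epithelial RGD-binding partner of alpha V, lay under the 20th percentile in both groups and differed by -0.09 ± 0.0947 (limma adjusted p = 0.586).

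Other proteins listed as RGD ligands were measured in 18 of 19 cases, and whether each mouse protein carries the motif was not checked. Of the 18, 9 rose and 1 fell (55.6% called, beside 23.2% of all genes and 33.8% of those above the median level). Their median difference was 0.17 against -0.04 over all genes. Fbln5, which encodes the elastic fibre protein fibulin 5, rose 4.95-fold (2.31 ± 0.124; limma adjusted p = 2.72e-10). The basement membrane gene Nid1 rose 3.46-fold (1.79 ± 0.08; limma adjusted p = 2.48e-11) and Tgfbi, a matrix protein induced by TGF-beta, 2.87-fold (1.52 ± 0.0815; limma adjusted p = 2.64e-10). The gene that fell was Vtn, vitronectin, a plasma protein made by hepatocytes and the namesake ligand of alpha V receptors, at -0.14 ± 0.0197 (limma adjusted p = 5.11e-05). Its 7 transgenic arrays all lay below its 9 wildtype arrays. The count of RGD genes that fell was 3 with arrays centred on their medians or without transgenic array 6, and 2 without transgenic array 5, wildtype array 1 or wildtype array 5. Of the 6 genes that anchor nephronectin or act downstream of it in kidney, 1 was called (16.7%, under the 23.2% of all genes), which is no result about the list. It was Frem1, a basement membrane protein of the Fraser complex, which rose by 0.84 ± 0.096 (limma adjusted p = 4.03e-06).

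Cytoplasmic partners of integrins rose in 15 of 27 measured cases and fell in none (55.6% called, beside 23.2% of all genes and 33.8% of those above the median level), with a median difference of 0.19 against -0.04 over all genes. The largest were the actin cross-linker Flna (1.64 ± 0.0808, log2, SE), the tensin Tns3 (0.86 ± 0.0686) and Lims1, the PINCH adaptor of integrin-linked kinase (0.68 ± 0.0968), with limma adjusted p-values of 9.02e-11, 5.31e-08 and 5.03e-05. With arrays centred on their medians 10 of the 27 rose. In the latent TGF-beta list, some of whose members form complexes bound by alpha V integrins, 6 of 9 genes rose and none fell. The share called was 66.7%, beside 23.2% of all genes and 33.8% of those above the median level. The median difference of the list was 0.48 against -0.04 over all genes. Tgfb3, a TGF-beta ligand with an RGD motif in its latency peptide, rose by 1.29 ± 0.0891 (limma adjusted p = 8.00e-09). The latent TGF-beta binding proteins Ltbp1 and Ltbp4 rose by 1.23 ± 0.0893 and 0.93 ± 0.0669 (limma adjusted p = 1.44e-08 and 1.28e-08). Tgfb1 and Tgfb3 belong to both this list and that of RGD proteins.

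**Figure D5:**
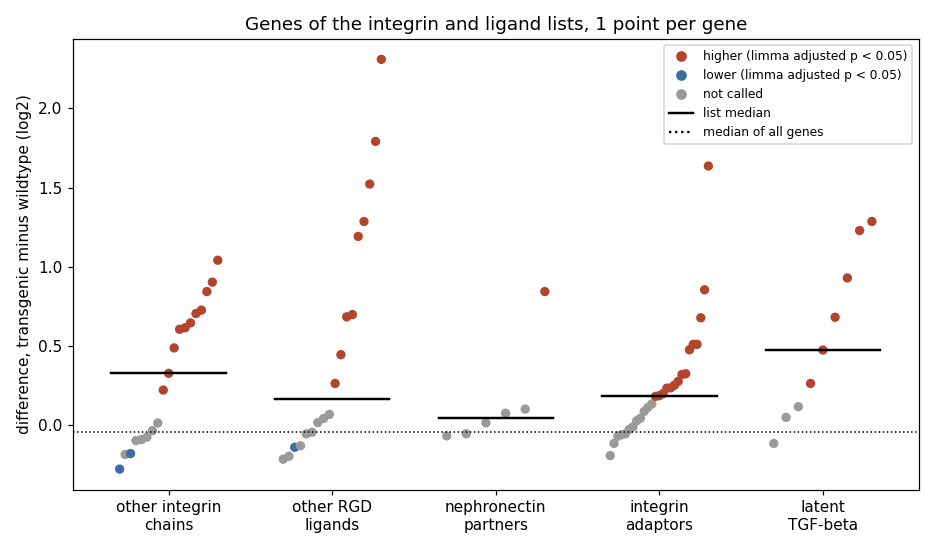
Difference between transgenic and wildtype livers (log2, transgenic minus wildtype) for the genes of 5 lists, 1 point per measured gene, coloured by the limma call, with the list median as a bar and the median of all genes as a dotted line. The highest points are Fbln5 at 2.31 and Nid1 at 1.79 among RGD proteins and Flna at 1.64 among adaptors.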

How the data were processed

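Liver RNA of 7 transgenic and 9 wildtype samples was analysed, 1 array each. The deposited values are log2 intensities that the authors made with GCRMA, per the submitters' processing notes, which models background from the bases of each probe and then normalizes between arrays. Its version and the log base are not given in the sources used here, and the base was read from the range of 0.71 to 14.7. Of 35557 rows, 21789 carried 1 symbol, 1621 several and 12147 none here.

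All rows entered a limma 3.58.1 fit in R 4.3.3 (lmFit and eBayes with a trend, two-sided, no filter), with Benjamini-Hochberg adjustment. The code of the fit was run on simulated data with independent noise in each row. Such data hold no effect shared by an array, so this run does not check the calls for one. Members, lists and tests were chosen with earlier results of these data known. Named genes were all members, Pdgfc, up to 3 called genes per pathway list by size (or the smallest p), 2 per marker list by size, and the 5 genes nearest to Itga8; genes of counts of 5 or fewer, and Itgb6, Alb, Gp9, Gp5, Treml1 and Tgfb1, were named after their values were seen. For arrays, their number limits the precision. Alternatives changed the scaling (quantile, median-centred), the rows (brighter than the median, or averaged per gene), the eBayes options (no trend, robust), the floor (20th percentile), a block on replicate number, or the arrays included. Promoters came from RefSeq. Plots used matplotlib 3.10.9 in Python 3.11.15.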

Additional observations from a re-analysis of the deposited data

Results flagged for a closer look

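In 18 groups of member values, 2 arrays lay apart from the rest of their group, by a gap to the nearest array that exceeded the 95% critical share of the group's range; chance gives about 1 in 20 groups. Itgb8 in transgenic array 6 was at 7.01, above the next transgenic array at 6.66, and without that array the difference of Itgb8 was 1.68 (limma adjusted p = 1.38e-09). Itgb1 in wildtype array 9 was at 9.82, above the next wildtype array at 9.67, and without that array the difference of Itgb1 was 0.31 (limma adjusted p = 0.00195).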

How the results depend on the processing

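Under 25 alternative settings the count of members called stayed at 4 higher and 0 lower, and the difference of Itga8 ranged from 4.26 to 4.36. Of 199 values of the 8 tested members under an alternative, 193 kept their direction and side of the threshold, and Itga8, whose difference was not tested, kept its direction in all 25. The 6 others were small differences of Npnt and Fn1 that changed sign, none of them called: Npnt was at -0.0096 with arrays centred on their medians, -0.024 with the replicate block and -0.012 without both transgenic array 1 and wildtype array 9, and with 1 array left out Npnt ranged from -0.0056 to 0.080 and Fn1 from -0.045 to 0.0068. Itgb1 had its highest adjusted p (limma, 0.0343) after centring. After centring, 4688 rows were lower, against 2936 as deposited. Among other RGD proteins 1 gene was lower as deposited, 3 after centring, 2 on rows above the median level and 1 to 3 with 1 array left out (3 without transgenic 6, and 2 without transgenic 5, wildtype 1 or wildtype 5). Among other integrin chains 2 were lower as deposited, 1 with the replicate block and 1 to 2 with 1 array left out (all but transgenic 1, 2 and 7 and wildtype 3 gave 1), since Itga2b lost its call. On rows above the median level Frem1 was not tested, which left 0 nephronectin partners higher. The cause of these shifts was otherwise not tested. Npnt has no value on the brighter rows, and the mean over a gene's rows equals the main values, as each member has 1 row. No pairing of arrays by shared replicate number was seen. The correlation of deviations was -0.02 to 0.09 over 7 pairs, and no array correlated best with its own number. A weak pairing could be missed by this check. The block (in which wildtype arrays 8 and 9 have no partner) gave 3487 higher and 2237 lower rows and changed no member's call.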
